A study of Mus musculus with 17 samples.

Results

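Pcbp2 and the other mouse genes of the poly(C)-binding family, Pcbp1, Pcbp3, Pcbp4 and Hnrnpk, were chosen by gene symbol, and every transcript filed under those symbols was taken. They made up 5 of 55357 gene identifiers and 98 of 142376 transcripts in the quantified transcriptome. The samples were 17 preparations of male β cells of C57BL/6 mice, sorted for the tdTomato reporter from islets that had been cultured for 72 hours. Of these, 3 were WT cells at 2.8 mM glucose, 4 were WT cells at 16.7 mM, and 5 at each concentration were PCBP2KO cells. Per the study's methods, WT cells came from mice with the Cre-inducible tdTomato allele and the RIP-Cre transgene, which is driven by the rat insulin promoter. PCBP2KO cells came from mice with these same 2 alleles and with both copies of Pcbp2 floxed, so Cre and the reporter were shared by all groups and only the floxed alleles differed. The reporter marks any cell in which Cre has acted, which does not show that both floxed copies were recombined in that cell.

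Poly(C)-binding proteins bind single-stranded C-rich stretches of RNA through KH domains and act in splicing, mRNA stability and translation. PCBP1 and PCBP2 also serve as iron chaperones, which hand iron to ferritin and to iron-dependent enzymes. Hnrnpk encodes hnRNP K, the most distant member of the family, a protein that shuttles between nucleus and cytoplasm. The comparisons asked which Pcbp2 transcripts were left in PCBP2KO cells, and whether the paralogs or their isoforms differed with genotype or glucose.

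On the GRCm39 build, Pcbp2 lies at 102378928 to 102408805 on the plus strand of chromosome 15, and its transcript Pcbp2-201 has 15 exons. Its start codon is at 102381769 to 102381771, in exon 2, which carries 69 of the 1086 coding bases. In the study's drawing of the floxed allele, though not in its text, the loxP sites lie upstream of exon 1 and between exons 2 and 3, and exon 3 onward is left after Cre has acted. The exon numbers of the drawing were taken here as those of Pcbp2-201. Hnrnpk lies at 58536691 to 58551339 on the minus strand of chromosome 13, Pcbp1 at 86501468 to 86504330 on the minus strand of chromosome 6, Pcbp3 at 76593536 to 76797951 on the minus strand of chromosome 10, and Pcbp4 at 106330168 to 106341222 on the plus strand of chromosome 9. Pcbp1 has a single transcript with 1 exon.

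The stretches that define the forms compared here are shown 5′ to 3′ on the strand of the gene. The first is the start of the Pcbp2 reading frame at chr15:102381769-102381798, inside the floxed segment as drawn, with the start codon in capitals. The next 3 mark Pcbp2 isoforms: the border of an exon of 93 bases at chr15:102394368-102394397, that of an exon of 39 bases at chr15:102397196-102397225, and a 12-base extension of another exon at chr15:102392574-102392603, each with the bases of the optional segment in capitals and the flanking bases in lower case.
Pcbp2 start of coding: ATGgacaccggtgtgattgaaggtggatta
Pcbp2 93-base exon: tctatttatccacagGACAGGTACAGCACA
Pcbp2 39-base exon: cttgtatcttaacagGCATTGAATCCAGCT
Pcbp2 12-base extension: tttttttcccctctgACTCTCTCCCAGtcc

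For Hnrnpk, the stretches shown are the border of an exon of 44 bases at chr13:58545596-58545625, whose absence marks the decay-annotated transcripts, and the alternative starts of a later exon, which differ by 60 bases. The longer form begins within chr13:58540276-58540305 and the shorter within chr13:58540216-58540245. Capitals mark the first 15 bases of the exon or form named. Lower-case bases can be coding in another transcript model. Of the 30 bases printed, all are coding in some model for the shorter form, and 21 for the 44-base exon. The first 15 exonic bases of the longer and shorter forms differ at 1 position, G14T, counted from the first exonic base with the longer form named first.
Hnrnpk 44-base exon: caatgaccaatgcagTACAATGCCAGTGTT
Hnrnpk 60-base extension: tcttttcttttatagTGTGAAGCAGTATGC
Hnrnpk shorter form: ttttcttttttatagTGTGAAGCAGTATTC

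Total estimated counts ran from 47385513 to 82419400 per sample. In replicate 4 of WT and replicates 4 and 5 of PCBP2KO at 16.7 mM, 3 samples that stood apart, TMM factors were 1.01, 0.939 and 0.952, against 0.752 to 0.860 in the other WT and 0.791 to 0.850 in the other PCBP2KO samples at that concentration, so results were also computed without these 3. All 9 β cell markers averaged at least 1 TPM in 3 groups, and 8 of 9 did in PCBP2KO at 2.8 mM. The summed level of the β cell markers, which include both insulin genes, was 348959 to 397353 TPM in WT and 242332 to 343110 TPM in PCBP2KO at 2.8 mM. At 16.7 mM it was 624039 to 677621 and 653974 to 705495 TPM. TPM divides counts by transcript length and scales them to 1 fixed total per sample, and its median over 12077 genes was 9.31 to 10.3 in WT and 9.01 to 12.1 in PCBP2KO at 2.8 mM, but 4.41 to 7.29 and 4.61 to 5.93 at 16.7 mM. Glucose comparisons of TPM therefore carry this shift, and TMM-scaled CPM, which is not corrected for length and holds the bulk of genes level between samples, is given for genes.

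The 5 α cell markers summed to 723 to 2753, 137 to 1216, 1752 to 13008 and 101 to 835 TPM in WT at 2.8 and 16.7 mM and PCBP2KO at 2.8 and 16.7 mM, with Irx1 at 0 in every sample of the last. The δ cell markers (2 genes) summed to 137 to 566, 102 to 322, 239 to 2099 and 77.8 to 355 TPM, and Ppy, the marker of PP cells, stood at 2711 to 3200, 458 to 1651, 3656 to 17068 and 496 to 2229 TPM. The 5 acinar markers summed to at most 26.3 TPM in any sample and the 3 ductal markers to at most 159 TPM. In the same order as before the 4 macrophage markers summed to 15.1 to 52.9, 0.899 to 9.41, 24.1 to 120.1 and 0.644 to 6.83 TPM. The highest sums of the 3 endothelial and the 3 stellate markers over all samples were 0.367 and 0.588 TPM. The parts that these cells had in the results below were not tested.

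Pcbp2 was lower in every PCBP2KO sample than in every WT sample at the same glucose concentration. In WT cells at 2.8 mM it stood at 63.4, 73.4 and 50.7 CPM, and at 16.7 mM at 35.0, 45.4, 44.4 and 36.7 CPM. In PCBP2KO cells it stood at 19.2, 17.5, 16.8, 15.5 and 18.2 CPM at 2.8 mM and at 10.03, 5.81, 6.39, 8.48 and 7.61 CPM at 16.7 mM. The genotypes did not overlap at either concentration, and the highest PCBP2KO sample at 2.8 mM was below the lowest WT sample at 16.7 mM. The log2 fold change of PCBP2KO against WT was -1.84 ± 0.17 (SE, adjusted p = 3.6e-06) at 2.8 mM and -2.40 ± 0.16 (adjusted p = 7.6e-08) at 16.7 mM, by edgeR's quasi-likelihood test. Of the 5 genes, Pcbp2 was the 1 called in each of these comparisons, where 2.04% of all 22784 genes tested were called at 2.8 mM and 1.71% at 16.7 mM. Here and below, features were called where the fold passed 1.5 and the adjusted p lay below 0.05. In these bulk samples, fewer cells with Pcbp2 and less Pcbp2 RNA per cell cannot be told apart.

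The Pcbp2 level also differed between glucose concentrations. In WT cells it was lower at 16.7 mM by a log2 fold change of -0.63 ± 0.18 (edgeR adjusted p = 0.0208), with no overlap between the samples. With the replicate number as a block, the value was -0.58 with an edgeR adjusted p of 0.0268, a fold just under the limit for a call. The call was also lost without WT replicate 1 (-0.62) or 2 (-0.50) at 2.8 mM, or without WT replicate 1 (-0.57) or 4 (-0.57) at 16.7 mM. In PCBP2KO cells the glucose change was -1.19 ± 0.15 (edgeR adjusted p = 2.3e-05) and kept its call when any 1 sample was left out. Without the 3 samples that stood apart, Pcbp2 had -2.49 by genotype at 16.7 mM, -0.61 by glucose in WT and -1.27 by glucose in PCBP2KO, all still called. Of all genes, 13.8% were called in the WT comparison and 23.8% in the PCBP2KO comparison. The difference between these 2 glucose responses was -0.56 ± 0.23 with an unadjusted p of 0.0272 and an adjusted p of 1.00 in edgeR, so no difference between genotypes in the glucose response of Pcbp2 was shown; 0.00439% of genes passed that test.

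**Figure D1:**
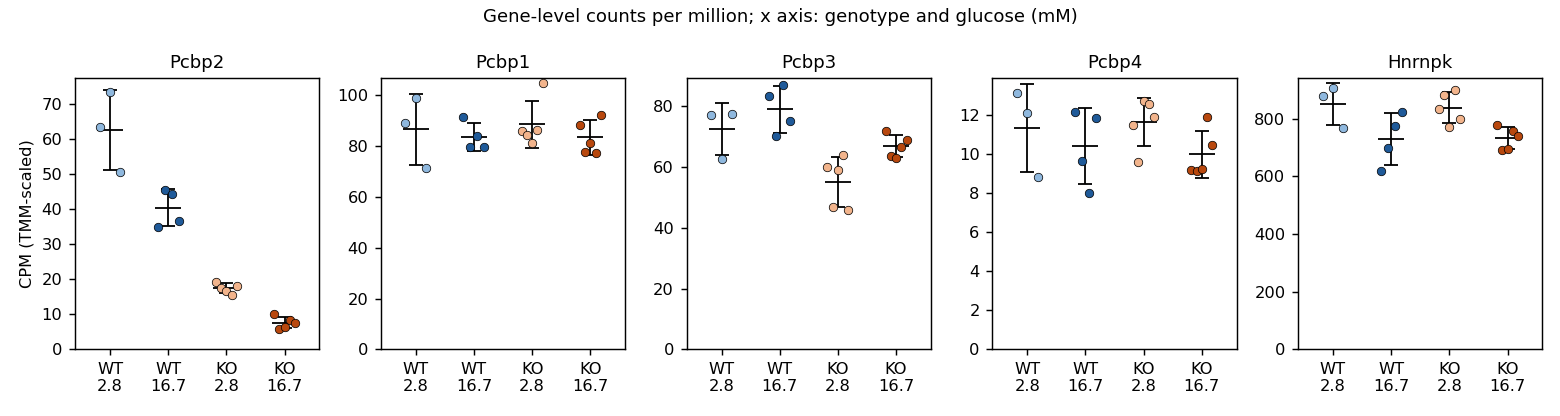
TMM-scaled CPM of the 5 poly(C)-binding genes in each of the 17 samples, by genotype (KO is PCBP2KO) and glucose concentration in mM; points are samples, dashes are means and bars are SD. Pcbp2 separated by genotype at both concentrations, from 50.7 to 73.4 CPM against 15.5 to 19.2 CPM at 2.8 mM. The genotypes overlapped for Pcbp1, Pcbp4 and Hnrnpk, and slightly for Pcbp3.

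The 31 Pcbp2 transcripts were divided by whether they hold exon 2 or an earlier exon, which 16 do, or begin after exon 2, which 15 do. Pcbp2-201, with its 15 exons, is in the first class. The classes follow the annotated transcript models, and where the RNA itself starts was not tested. In WT cells at 2.8 mM the first class summed to 41.5, 46.3 and 33.3 TPM and in PCBP2KO to 13.04, 12.9, 11.98, 12.3 and 11.1 TPM. The sums at 16.7 mM were 10.8, 15, 16.5 and 17.4 TPM in WT and 3.50, 1.93, 2.60, 3.03 and 2.86 TPM in PCBP2KO. The genotypes did not overlap, and the PCBP2KO mean was 30.4% of the WT mean at 2.8 mM (exact permutation test, two-sided, p = 0.0357) and 18.7% at 16.7 mM (exact permutation p = 0.0159), each the smallest p that these group sizes allow.

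The transcripts that begin after exon 2 were lower as well. They summed to 12.9, 15.6 and 14.6 TPM in WT and 4.66, 4.03, 8.54, 3.91 and 3.33 TPM in PCBP2KO at 2.8 mM. At 16.7 mM they summed to 3.12, 6.37, 6.02 and 5.94 TPM in WT and 0.967, 1.90, 1.04, 1.67 and 0.691 TPM in PCBP2KO. Again the genotypes did not overlap, with PCBP2KO means at 34.1% and 23.4% of WT (exact permutation p = 0.0357 and 0.0159, the smallest possible).

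The share of Pcbp2 TPM in transcripts that begin after exon 2 overlapped between genotypes. It was 23.8, 25.2 and 30.4 percent in WT and 26.3, 23.8, 41.6, 24.1 and 23.1 percent in PCBP2KO at 2.8 mM. The shares at 16.7 mM were 22.4, 29.8, 26.8 and 25.4 percent in WT and 21.7, 49.6, 28.6, 35.5 and 19.5 percent in PCBP2KO. The PCBP2KO samples spread more widely at 16.7 mM, where their whole Pcbp2 signal was 362 to 633 estimated counts, than in WT, where it was 1712 to 2641. No difference in this share was shown at either concentration (exact permutation p = 1.00 and 0.54). By estimated counts instead of TPM, the mean shares were 11.2% and 12.7% in WT and 11.9% and 14.7% in PCBP2KO at 2.8 and 16.7 mM. Kallisto divides reads from shared exons among transcripts that could have given them, so TPM under a transcript with exon 2 does not show that exon 2 itself was read. Exons 1 and 2 make up 453 of the 3318 exonic bases of the annotated Pcbp2-201.

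**Figure D2:**
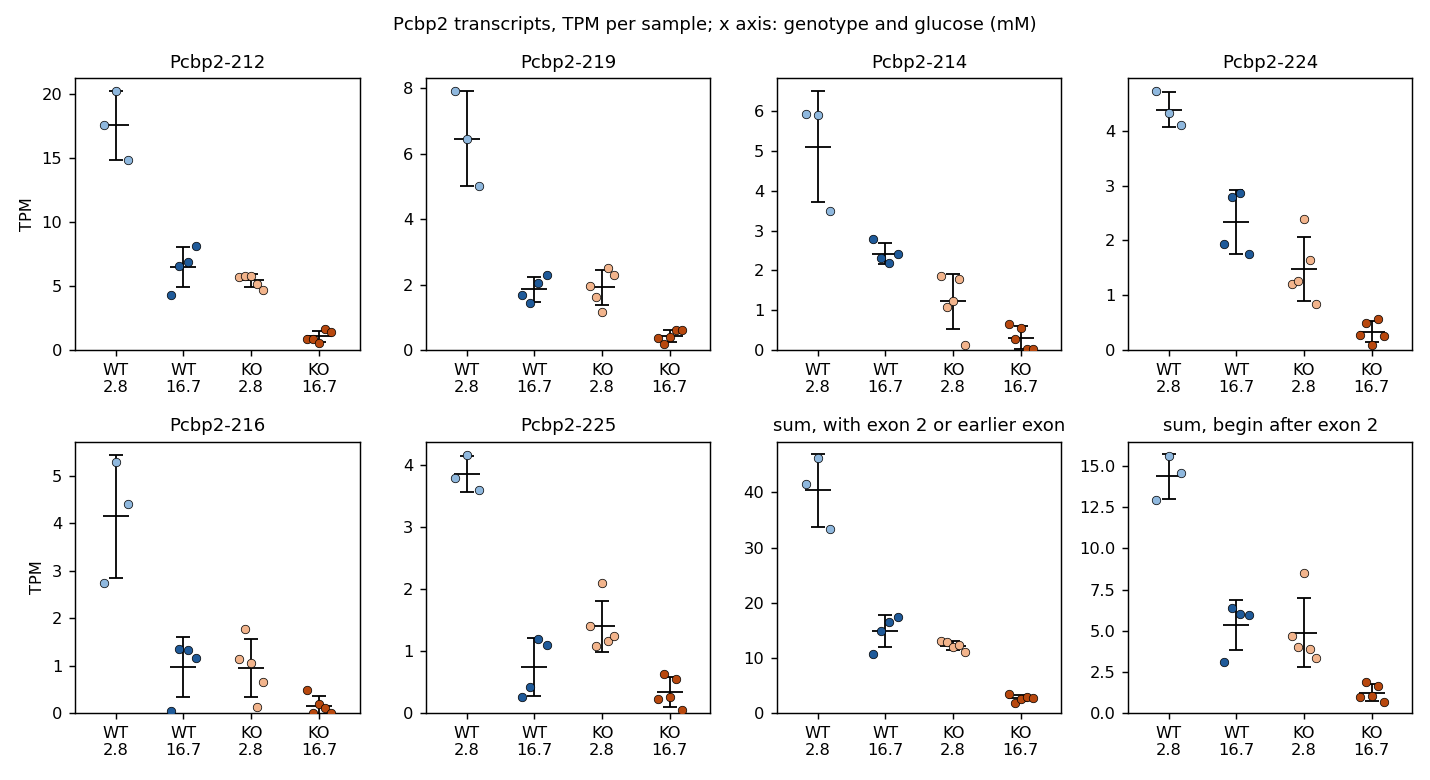
TPM of the 6 Pcbp2 transcripts with a mean of at least 1 TPM and the sums of the transcripts that hold exon 2 or an earlier exon and of those that begin after exon 2, per sample, by genotype (KO is PCBP2KO) and glucose in mM; points are samples, dashes are means and bars are SD, and each panel has its own axis from 0. Both sums were lower in PCBP2KO at each concentration, with means at 30.4% and 34.1% of WT at 2.8 mM.

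Pcbp2-212, a protein-coding form that lacks the 93-base exon and holds the 39-base exon, was the most abundant Pcbp2 transcript in all 4 groups. It stood at 17.5, 20.2 and 14.9 TPM in WT and 5.73, 5.81, 5.74, 5.18 and 4.71 TPM in PCBP2KO at 2.8 mM. The values at 16.7 mM were 4.30, 6.57, 6.89 and 8.10 TPM in WT and 0.900, 0.892, 0.580, 1.65 and 1.42 TPM in PCBP2KO. The genotypes did not overlap. It was lower in PCBP2KO by a log2 fold change of -1.84 ± 0.23 at 2.8 mM (edgeR adjusted p = 0.000699) and -2.48 ± 0.22 at 16.7 mM (adjusted p = 4.9e-05). In PCBP2KO cells it was lower at 16.7 than at 2.8 mM by -1.31 ± 0.21 (edgeR adjusted p = 0.000629), while the WT glucose value of -0.68 did not pass (adjusted p = 0.128). Its share of Pcbp2 TPM averaged 31.9% and 31.8% in WT and 31.9% and 26.9% in PCBP2KO at 2.8 and 16.7 mM.

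Pcbp2-219, a coding form that holds both the 93-base and the 39-base exon, was lower in the same comparisons. It stood at 7.91, 6.46 and 5.01 TPM in WT and 1.96, 1.63, 1.17, 2.52 and 2.29 TPM in PCBP2KO at 2.8 mM, and at 1.68, 1.43, 2.04 and 2.29 TPM in WT and 0.354, 0.178, 0.406, 0.608 and 0.618 TPM in PCBP2KO at 16.7 mM. The PCBP2KO change was -1.89 ± 0.36 (edgeR adjusted p = 0.0215) at 2.8 mM and -2.02 ± 0.34 (adjusted p = 0.0115) at 16.7 mM. The call at 2.8 mM was lost without WT replicate 1 (-1.70) or 2 (-1.87), or PCBP2KO replicate 1 (-1.92), 2 (-1.82) or 3 (-1.73) of that concentration, with edgeR adjusted p from 0.0509 to 0.136. Its glucose change was -1.14 ± 0.32 in PCBP2KO (edgeR adjusted p = 0.0251), lost without replicate 4 (-1.08) or 5 (-0.99) at 2.8 mM or replicate 1 (-1.12) or 3 (-1.14) at 16.7 mM.

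Pcbp2-224, which is annotated as coding but begins after exon 2, was called at 16.7 mM. It stood at 1.94, 2.79, 2.87 and 1.75 TPM in WT and 0.272, 0.494, 0.0896, 0.575 and 0.252 TPM in PCBP2KO there, a change of -2.78 ± 0.41 (edgeR adjusted p = 0.00391). At 2.8 mM it stood at 4.72, 4.33 and 4.10 TPM in WT and 1.21, 1.26, 2.39, 1.64 and 0.850 TPM in PCBP2KO, a change of -1.76 that did not pass (edgeR adjusted p = 0.086), although the samples did not overlap. Pcbp2-206, a coding form that begins between exons 1 and 2 of Pcbp2-201, was the fourth called at 16.7 mM, at 0.254, 0.616, 0.550 and 0.629 TPM in WT and 0.0353, 0.166, 0.125, 0.110 and 0.0270 TPM in PCBP2KO. Its change of -2.37 ± 0.47 (edgeR adjusted p = 0.0376) was lost in 11 of the 17 fits that left out 1 sample, with values from -2.12 to -2.55 and adjusted p from 0.0502 to 0.118. The samples were WT replicates 1, 2 and 3 and PCBP2KO replicates 1 and 4 at 2.8 mM, and WT replicates 2 and 3 and PCBP2KO replicates 1, 3, 4 and 5 at 16.7 mM. Without the 3 samples that stood apart it was -2.10 (adjusted p = 0.134).

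The remaining Pcbp2 transcripts with a mean of at least 1 TPM were Pcbp2-214, Pcbp2-216 and Pcbp2-225, none of which was called. Pcbp2-214, which holds the 39-base exon and the 12-base extension, averaged 5.10 ± 1.39 TPM in WT and 1.22 ± 0.695 TPM in PCBP2KO at 2.8 mM, and 2.42 ± 0.263 and 0.305 ± 0.290 TPM at 16.7 mM (SD). Pcbp2-216, which has the 93-base exon but not the 39-base exon, averaged 4.14 ± 1.30 and 0.951 ± 0.604 TPM at 2.8 mM and 0.974 ± 0.625 and 0.162 ± 0.204 TPM at 16.7 mM in WT and PCBP2KO. Pcbp2-225, a retained-intron transcript at the 3′ end of the gene, averaged 3.86 ± 0.290 and 1.40 ± 0.412 TPM at 2.8 mM and 0.750 ± 0.470 and 0.349 ± 0.241 TPM at 16.7 mM in the same order. Their edgeR log2 fold changes for PCBP2KO were -2.27, -2.25 and -1.62 at 2.8 mM and -2.83, -2.31 and -0.99 at 16.7 mM, in the order named.

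Of the transcripts with exon 2 or an earlier exon that averaged under 1 TPM over all samples, Pcbp2-201 averaged 2.00 and 0.503 TPM in WT and PCBP2KO at 2.8 mM and 0.739 and 0.0989 TPM at 16.7 mM, and was not called. Pcbp2-209, Pcbp2-231, Pcbp2-202 and Pcbp2-217 averaged 1.03, 1.33, 0.717 and 0.186 TPM in WT at 2.8 mM and 0.636, 0.226, 0.479 and 0.317 TPM in PCBP2KO at 2.8 mM. Pcbp2-227 averaged 0.516 TPM in WT at 2.8 mM and at most 0.0596 TPM in the other groups. Pcbp2-203, which lacks both optional exons, stood at 0.0442, 0.114 and 0.206 TPM in WT at 2.8 mM and 0.0915, 0.255 and 0.507 TPM in replicates 1, 2 and 3 at 16.7 mM, was nearly 0 in the remaining WT sample and was listed at 0 in all 10 PCBP2KO samples. Pcbp2-218, Pcbp2-220, Pcbp2-205 and Pcbp2-208 stayed under 0.5 TPM in every sample.

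Of those that begin after exon 2, Pcbp2-222, Pcbp2-211, Pcbp2-229, Pcbp2-230 and Pcbp2-228 averaged 1.88, 1.47, 1.10, 0.653 and 0.512 TPM in WT at 2.8 mM, and 0.862, 0.413, 0.407, 0.136 and 0.0317 TPM in PCBP2KO at 2.8 mM. Pcbp2-204, Pcbp2-207, Pcbp2-210, Pcbp2-213, Pcbp2-215, Pcbp2-221 and Pcbp2-226 had group means of 0.266 TPM or less. Pcbp2-223 was listed at 0 in all 17 samples. Retained-intron transcripts as a whole made up a mean of 12.7% and 8.43% of Pcbp2 TPM in WT and 15.2% and 14.8% in PCBP2KO at 2.8 and 16.7 mM, with overlap between genotypes (exact permutation p = 0.607 and 0.349).

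Of the 31 Pcbp2 transcripts, 19 passed the filter on low counts. Over all 5 genes, 57 transcripts passed, of which 2 were called lower and none higher in PCBP2KO at 2.8 mM and 4 lower and none higher at 16.7 mM, every one of them a Pcbp2 transcript. The shares of all 65504 transcripts called were 0.504% and 0.392%. In the glucose comparisons 1 of the 57 was called lower in WT, where 4.68% of all transcripts were called, and 3 were called lower in PCBP2KO, where 13.8% were. The WT background rested on single samples, since of all transcripts 459 of 69626 were called without WT replicate 2 and 982 of 69610 without replicate 1 at 2.8 mM, against 3064 with every sample. None was called for the difference of the glucose responses, where 0.00153% of all transcripts were.

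The optional Pcbp2 segments were compared as the share of TPM, among transcripts spanning the segment, that includes it. The 93-base exon was included in a mean of 41.2% and 36.5% in WT and 42.0% and 38.6% in PCBP2KO at 2.8 and 16.7 mM. The 39-base exon was included in 85.8%, 89.6%, 89.9% and 90.1% in the same order, and the 12-base extension in 27.0%, 36.3%, 27.5% and 32.0%. No genotype comparison of these shares had an exact permutation p under 0.254. In WT the 93-base exon was lower at 16.7 mM in every sample, at the smallest exact permutation p that 3 against 4 samples allow, 0.0571, which cannot pass 0.05. A test of transcript usage, which asks whether a transcript moved differently from the rest of its gene, called none of the 19 Pcbp2 transcripts by genotype, against 0.287% and 0.298% of the 55096 transcripts tested at 2.8 and 16.7 mM. It also called none by glucose in WT (background 1.56%). With the replicate block, however, it called Pcbp2-203 there (2.62), a transcript of very low TPM in every sample, as given above.

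Pcbp1, the intronless paralog of Pcbp2, did not differ by genotype beyond the spread of the samples. It stood at 89.0, 99.1 and 71.5 CPM in WT and 85.8, 84.5, 81.1, 86.3 and 105 CPM in PCBP2KO at 2.8 mM, and at 91.3, 79.7, 84.0 and 79.5 CPM in WT and 88.5, 77.5, 81.2, 77.5 and 92.3 CPM in PCBP2KO at 16.7 mM. The groups overlapped, and the log2 fold changes were 0.03 ± 0.12 and -0.004 ± 0.11. Relative to Pcbp1, the length-scaled Pcbp2 level was a mean of 112.8% and 74.2% in WT and 31.4% and 16.0% in PCBP2KO at 2.8 and 16.7 mM, with no overlap by genotype (exact permutation p = 0.0357 and 0.0159). This ratio within a sample is free of the scaling between samples. It was also lower at 16.7 than at 2.8 mM in every sample of each genotype, with exact permutation p = 0.0571 in WT, the smallest possible, and 0.00794 in PCBP2KO.

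Pcbp3, a family member of more restricted expression, was the paralog with the largest genotype value. It stood at 77.0, 62.4 and 77.4 CPM in WT and 59.9, 46.8, 59.0, 63.9 and 45.7 CPM in PCBP2KO at 2.8 mM, and at 83.2, 70.0, 86.9 and 75.1 CPM in WT and 71.8, 63.6, 63.0, 66.4 and 68.8 CPM in PCBP2KO at 16.7 mM. At 2.8 mM the log2 fold change was -0.39 ± 0.13 with an unadjusted p of 0.0073 and an edgeR adjusted p of 0.154. At 16.7 mM it was -0.24 ± 0.12 (edgeR adjusted p = 0.443). The groups overlapped slightly at both concentrations, and neither value passed the test over all genes. Pcbp3-201, the leading coding form with a mean of 73.8% to 75.96% of Pcbp3 TPM in every group, averaged 27.2 ± 3.804 and 23.5 ± 5.56 TPM at 2.8 mM and 17.4 ± 3.72 and 13.7 ± 1.53 TPM at 16.7 mM in WT and PCBP2KO. Pcbp3-203 averaged 6.33 ± 1.21, 5.05 ± 1.12, 3.93 ± 0.805 and 2.98 ± 0.305 TPM in that order. Pcbp3-209, a short coding transcript, averaged 2.23 ± 0.867, 2.18 ± 0.749, 0.807 ± 0.511 and 0.537 ± 0.289 TPM, and its share of Pcbp3 was lower at 16.7 mM in every PCBP2KO sample than at 2.8 mM (exact permutation p = 0.00794, the smallest possible, 1 of 264 such comparisons). The other 6 Pcbp3 transcripts averaged under 1 TPM. None of the 6 Pcbp3 transcripts that passed the filter was called.

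Pcbp4, the least abundant of the 5 genes by mean TPM, encodes a family member linked to growth arrest. It stood at 13.1, 12.1 and 8.79 CPM in WT and 11.4, 9.58, 12.7, 12.5 and 11.9 CPM in PCBP2KO at 2.8 mM, and at 12.1, 9.62, 7.996 and 11.8 CPM in WT and 9.15, 9.12, 9.21, 11.9 and 10.4 CPM in PCBP2KO at 16.7 mM, with overlap throughout and log2 fold changes of 0.04 and -0.06. Its 1 transcript of at least 1 TPM, Pcbp4-201, averaged 5.11 ± 0.897 and 6.07 ± 1.13 TPM at 2.8 mM and 2.67 ± 0.864 and 2.49 ± 0.546 TPM at 16.7 mM in WT and PCBP2KO. Of its 23 transcripts, 3 passed the filter and 5 were listed at 0 in every sample. The other 22 had at most 1.15 TPM in any sample.

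Hnrnpk was the most abundant gene of the family by TPM and by CPM. It stood at 879.9, 905 and 769 CPM in WT and 835, 883, 771, 898 and 800.3 CPM in PCBP2KO at 2.8 mM, and at 618, 699, 773 and 823 CPM in WT and 778, 693, 695, 759 and 738 CPM in PCBP2KO at 16.7 mM. The log2 fold changes by genotype were -0.02 and 0.01. Neither these nor the glucose values of -0.23 in WT (edgeR adjusted p = 0.246) and -0.19 in PCBP2KO (adjusted p = 0.178) passed. Of the 31-base stretches of its transcripts, 9.02% also occur in transcripts of 3 other genes, of which Gm7964 reached the highest level, 0.106 TPM. Pcbp2 had 4.74% of its stretches in other genes and shared 3 with Pcbp1.

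How far the paralogs moved with glucose, and for Pcbp3 in which direction, depended on the scale. On TMM-scaled CPM, Pcbp3 had 0.12 in WT and 0.28 in PCBP2KO, and the other 3 lay from -0.23 to -0.05. On log2(TPM + 0.1), all 5 genes were called lower at 16.7 mM in limma, with Pcbp3 at -0.68 and -0.79, Pcbp1 at -0.83 and -1.11, Pcbp4 at -0.77 and -1.17, Hnrnpk at -1.08 and -1.34 and Pcbp2 at -1.45 and -2.06 in WT and PCBP2KO. The median over all genes on this scale was -0.56 in WT and -0.71 in PCBP2KO. All 5 genes lay below that median in both genotypes. Pcbp2 was the lowest of them, an order that taking off a common median cannot change.

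**Figure D3:**
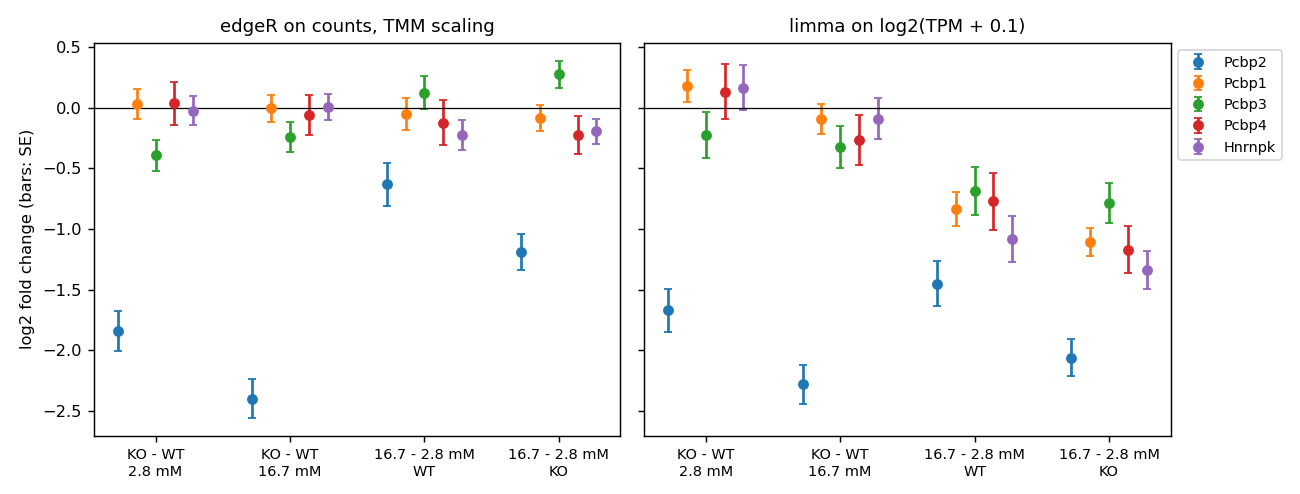
Log2 fold changes (points) with standard errors (bars) of the 5 genes in the genotype comparisons (KO is PCBP2KO) at each glucose concentration and in the glucose comparisons of each genotype, from edgeR on TMM-scaled counts at left and from limma on log2(TPM + 0.1) at right. Pcbp2 was lowest in every comparison on either scale, and the paralogs, which lay from -0.23 to 0.28 for glucose at left, lay from -0.68 to -1.34 at right.

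The summed TPM of the 4 paralogs overlapped between genotypes. The sum was 496, 518 and 465 TPM in WT and 481, 565, 557, 642 and 485 TPM in PCBP2KO at 2.8 mM (log2 difference 0.14, exact permutation p = 0.25). At 16.7 mM it was 182, 217, 256 and 344 TPM in WT and 206, 214, 206, 257 and 243 TPM in PCBP2KO (log2 difference -0.12, exact permutation p = 0.571). Pcbp2 made up 9.89, 10.7 and 9.34 percent of the 5-gene sum in WT and 3.55, 2.91, 3.55, 2.46 and 2.88 percent in PCBP2KO at 2.8 mM. In the samples at 16.7 mM it made up 7.09, 8.96, 8.07 and 6.36 percent in WT and 2.13, 1.76, 1.74, 1.79 and 1.44 percent in PCBP2KO. The genotypes did not overlap (exact permutation p = 0.0357 and 0.0159). The sum of all 5 genes differed by a log2 value of 0.03 at 2.8 mM and -0.20 at 16.7 mM (exact permutation p = 0.75 and 0.349). Divided by each sample's median TPM, these were -0.09 and -0.13 (exact permutation p = 0.321 and 0.0476), so the sign at 2.8 mM and the threshold at 16.7 mM depended on the scale.

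**Figure D4:**
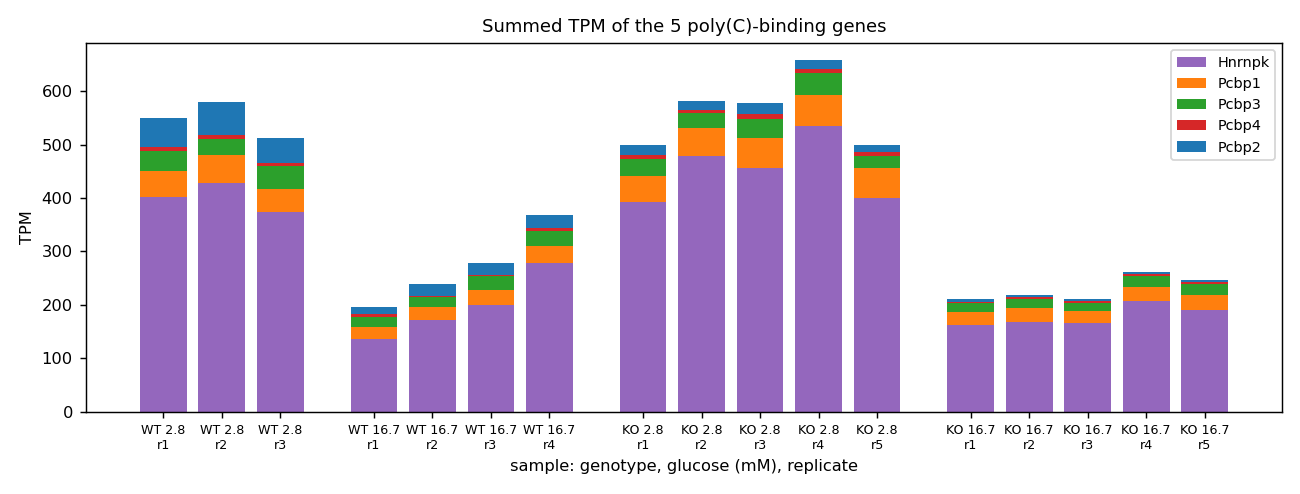
Stacked TPM of Hnrnpk, Pcbp1, Pcbp3, Pcbp4 and Pcbp2 in each of the 17 samples, by genotype (KO is PCBP2KO), glucose in mM and replicate. Hnrnpk filled most of each bar, and Pcbp2, at the top, made up a mean of 9.97% of the sum in WT and 3.07% in PCBP2KO at 2.8 mM.

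Several shares of Hnrnpk isoforms separated the glucose concentrations, while most overlapped between genotypes. They are among 264 permutation comparisons whose p values were not adjusted, and no share over all genes was computed beside them. The usage test called 0 of 56 tested members by glucose in WT, where 1.56% of all transcripts were called. The 3 Hnrnpk transcripts annotated for nonsense-mediated decay that lack the 44-base exon are Hnrnpk-203, Hnrnpk-230 and Hnrnpk-229. Nonsense-mediated decay degrades mRNAs with an early stop codon. Decay-annotated transcripts made up 6.36, 5.76 and 4.17 percent of Hnrnpk TPM in WT at 2.8 mM and 2.76, 2.47, 2.46 and 3.84 percent at 16.7 mM. In PCBP2KO they made up 4.84, 6.52, 4.53, 4.58 and 6.61 percent at 2.8 mM and 2.76, 2.24, 2.09, 3.88 and 2.88 percent at 16.7 mM. Every sample at 16.7 mM was below every sample of its genotype at 2.8 mM (exact permutation p = 0.0571 in WT and 0.00794 in PCBP2KO, each the smallest possible). By genotype the exact permutation p was 1.00 at 2.8 mM and 0.81 at 16.7 mM.

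The 44-base exon moved the other way, because the only transcripts counted without it are the same 3 decay-annotated ones. Its inclusion restates their share over a smaller set of transcripts and is not a second result. Its inclusion was 92.9, 92.9 and 95.0 percent in WT and 94.4, 92.0, 94.6, 94.5 and 91.8 percent in PCBP2KO at 2.8 mM. At 16.7 mM it was 96.8, 97.1, 97.3 and 95.5 percent in WT and 96.9, 97.5, 97.5, 95.6 and 96.8 percent in PCBP2KO. Inclusion at 16.7 mM was above that at 2.8 mM in every sample of each genotype (exact permutation p = 0.0571 and 0.00794). Without the 3 samples that stood apart, the rises of 3.02 and 3.39 percentage points were 3.41 and 3.85.

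Hnrnpk-203, the most abundant of the decay-annotated transcripts, was the 1 paralog transcript called in both glucose comparisons. It stood at 15.6, 13 and 8.77 TPM in WT at 2.8 mM and 2.02, 2.79, 3.22 and 4.33 TPM at 16.7 mM. In PCBP2KO it stood at 12.4, 19.8, 14.5, 19.8 and 18.5 TPM at 2.8 mM and 4.06, 2.44, 2.91, 6.63 and 3.49 TPM at 16.7 mM. The samples did not overlap between concentrations. On TMM-scaled counts the log2 fold change was -1.24 ± 0.31 in WT (edgeR adjusted p = 0.0299) and -1.09 ± 0.26 in PCBP2KO (adjusted p = 0.00932). In WT the value with the replicate block was -1.25 with an edgeR adjusted p of 0.0689. The WT call was also lost without replicate 1 (-1.04) or 2 (-1.17) at 2.8 mM or replicate 1 (-1.17), 2 (-1.24) or 3 (-1.25) at 16.7 mM. Without the 3 samples that stood apart, the values of Hnrnpk-203 were -1.32 and -1.34, both called. Hnrnpk-230 averaged 8.36 ± 2.80 and 2.34 ± 2.50 TPM in WT and 6.20 ± 2.04 and 0.900 ± 0.682 TPM in PCBP2KO at 2.8 and 16.7 mM.

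The 60-base extension of a late Hnrnpk exon was less frequent at 16.7 mM. The share that includes it was 54.4, 53.8 and 57.1 percent in WT at 2.8 mM and 39.2, 44.8, 49.7 and 48.2 percent at 16.7 mM, without overlap (exact permutation p = 0.0571). In PCBP2KO it was 53.3, 54.6, 51.2, 51.6 and 41.7 percent at 2.8 mM and 47.5, 44.5, 41.9, 45.1 and 30.97 percent at 16.7 mM, with overlap (exact permutation p = 0.0397). The PCBP2KO value passed 0.05 in 1 of 10 repeats with 1 sample left out, that without replicate 5 at 2.8 mM (difference -10.7 percentage points, exact permutation p = 0.0159). The other 9 repeats gave -5.73 to -9.85 percentage points. The test did not use the replicate numbers, within each of which the PCBP2KO share was lower at 16.7 mM. The 72-base exon was included in 89.0% and 88.4% in WT and 89.6% and 88.4% in PCBP2KO, with overlap between concentrations (exact permutation p = 0.686 and 0.262).

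Hnrnpk-201 and Hnrnpk-224 were the leading full-length coding forms, which differ in that 60-base segment. Hnrnpk-201, with the shorter form, made up a mean of 28.3% and 36.6% of Hnrnpk TPM in WT and 30.1% and 40.0% in PCBP2KO at 2.8 and 16.7 mM, without overlap between concentrations (exact permutation p = 0.0571 and 0.00794). Hnrnpk-224, with the longer form, averaged 125 ± 2.08 and 50.9 ± 18.1 TPM in WT and 126 ± 26.8 and 41.5 ± 7.25 TPM in PCBP2KO at 2.8 and 16.7 mM, while Hnrnpk-201 averaged 114 ± 9.22, 71.2 ± 20.02, 136 ± 14.7 and 71.6 ± 12.8 TPM. On TMM-scaled counts Hnrnpk-224 had a glucose value of -0.57 in WT (edgeR adjusted p = 0.0871) and -0.55 ± 0.15 in PCBP2KO (adjusted p = 0.0218, with a fold under 1.5), so it was not called. With the replicate block it was called in WT (-0.68, edgeR adjusted p = 0.0191), as it was without WT replicate 4 at 16.7 mM (-0.65) or without the 3 samples that stood apart (-0.69). In PCBP2KO it was called without replicate 5 at 2.8 mM (-0.63) or replicate 1 at 16.7 mM (-0.63). Hnrnpk-201 had 0.07 and 0.10, values whose sign turned with the scale.

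**Figure D5:**
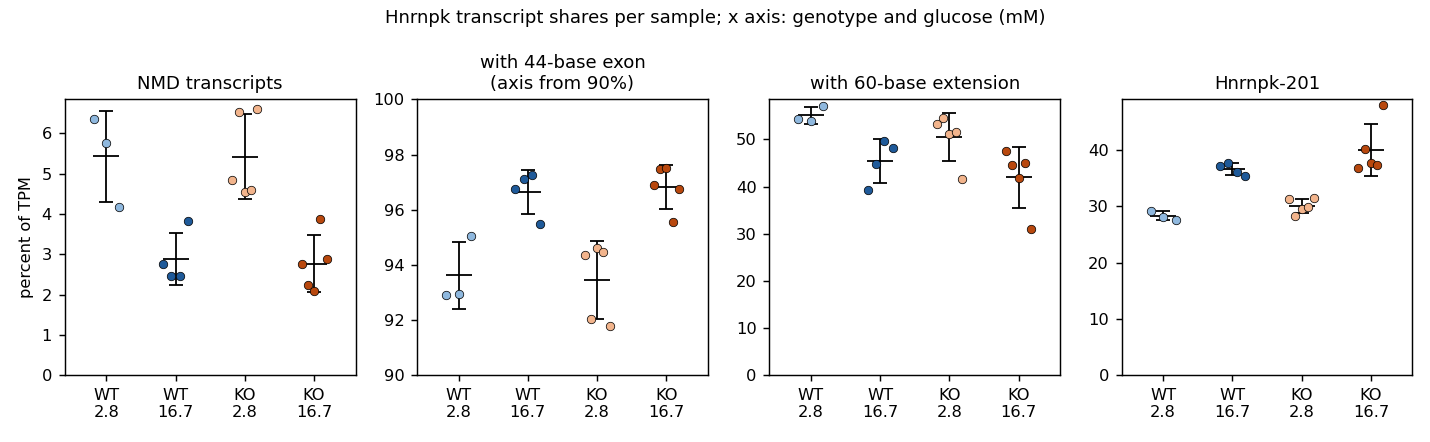
Share of Hnrnpk TPM per sample in transcripts annotated for nonsense-mediated decay (NMD), with the 44-base exon (axis from 90% to 100%), with the 60-base extension and in Hnrnpk-201, by genotype (KO is PCBP2KO) and glucose in mM; points are samples, dashes are means and bars are SD. NMD transcripts averaged 5.43% at 2.8 mM and 2.88% at 16.7 mM in WT, and 5.42% and 2.77% in PCBP2KO.

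The usage test called 2 of 56 tested members (3.57%) for glucose in PCBP2KO. Of all transcripts 6.05% were called, so these calls are not particular to the members. They were Hnrnpk-215, a retained-intron transcript (-2.78 ± 0.81, adjusted p = 0.0184), and Hnrnpk-230 (-2.68 ± 0.76, adjusted p = 0.0141), by limma diffSplice. On counts simulated for the genotype comparison at 16.7 mM, this test made more false calls than its threshold allows, whereas the false share of the edgeR calls lay close to the threshold. The call of Hnrnpk-215 was lost without PCBP2KO replicate 1 (-1.64) or 5 (-2.57) at 16.7 mM, and that of Hnrnpk-230 without replicate 3 at 16.7 mM (-1.34). A second usage test, diffSpliceDGE of edgeR, called no member in this comparison. The replicate block took away both calls and called Hnrnpk-208 and Hnrnpk-202 instead. As shares of Hnrnpk TPM, Hnrnpk-215 averaged 2.29% and 0.877% (exact permutation p = 0.119) and Hnrnpk-230 1.396% and 0.488% (exact permutation p = 0.0159) in PCBP2KO at 2.8 and 16.7 mM. No member was called for the difference of the glucose responses, where 0.114% of transcripts were.

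Among the other Hnrnpk transcripts of at least 1 TPM, Hnrnpk-217, a retained-intron form, averaged 36.6 ± 14.1 and 16.2 ± 12.5 TPM in WT and 56.8 ± 10.9 and 15.8 ± 2.58 TPM in PCBP2KO at 2.8 and 16.7 mM. Its share of Hnrnpk was above WT in every PCBP2KO sample at 2.8 mM (means of 9.12% and 12.5%, exact permutation p = 0.0357, the smallest possible and 1 of 264 such comparisons), whereas its edgeR value of 0.48 there had an adjusted p of 0.989. Hnrnpk-208 stood at 14.5, 13.9 and 5.04 TPM in WT and 0.470, 12.3, 17.1, 28.2 and 24.3 TPM in PCBP2KO at 2.8 mM, and at 0.513, 1.61, 1.90 and 1.33 TPM in WT and 1.32, 0.516, 2.78, 2.82 and 2.91 TPM in PCBP2KO at 16.7 mM. Its glucose values of -2.31 and -1.94 did not pass (edgeR adjusted p = 0.128 and 0.075), and replicate 1 of PCBP2KO at 2.8 mM lay below every sample at 16.7 mM. Without that replicate both were called, at -2.31 in WT (edgeR adjusted p = 0.0321) and -2.26 in PCBP2KO (adjusted p = 0.00748). Hnrnpk-214, a shorter coding form, averaged 29.2, 14.9, 30.3 and 14.2 TPM, and Hnrnpk-215 averaged 13.6, 3.24, 10.4 and 1.502 TPM, in the order WT at 2.8 and 16.7 mM and PCBP2KO at 2.8 and 16.7 mM.

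In the same order, the coding forms Hnrnpk-232, Hnrnpk-202 and Hnrnpk-205 averaged 17.5, 10.1, 15.5 and 7.01, then 9.72, 6.75, 10.6 and 7.005, then 6.84, 3.44, 7.13 and 3.68 TPM. Hnrnpk-213, Hnrnpk-226, Hnrnpk-221, Hnrnpk-223, Hnrnpk-210, Hnrnpk-211, Hnrnpk-204 and Hnrnpk-206 averaged 2.24, 0.843, 1.75, 0.884, 1.28, 1.76, 1.68 and 1.95 TPM in WT at 2.8 mM, and 0.702, 1.37, 1.02, 0.473, 0.720, 0.790, 1.13 and 0.655 TPM in PCBP2KO at 16.7 mM. The other 15 of the 34 Hnrnpk transcripts had means under 1 TPM, and 28 of the 34 passed the filter.

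No gene on a list of 29 other KH-domain proteins was called by genotype, of 28 tested, where 2.04% and 1.71% of all genes were called at 2.8 and 16.7 mM. Their median log2 fold change was 0.15 at 2.8 mM and 0.01 at 16.7 mM, beside 0.03 and 0.01 over all genes. With glucose, 4 of the 28 were called in WT and 7 in PCBP2KO, where 13.8% and 23.8% of all genes were, which is no result particular to this list. Hdlbp, which encodes vigilin, and Mex3a were called higher in WT (0.94 and 1.14) and in PCBP2KO (0.95 and 1.26), and Bicc1 in PCBP2KO (0.99). Fxr1, a relative of the fragile X protein, and Krr1, a ribosome assembly factor, were called lower in WT (-0.77 and -0.73) and PCBP2KO (-0.96 and -0.97). Pno1 and Mex3c were called lower in PCBP2KO (-0.80 and -0.70). The list medians were -0.14 and -0.32, beside 0.04 and 0.01 over all genes.

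A list of 18 genes of iron handling, among them partners and clients of PCBPs, was tested in full. Of these, 2 were called lower in PCBP2KO at 2.8 mM and 3 at 16.7 mM, and none higher. Of all genes, 2.04% and 1.71% were called. The list was made with earlier results of these data known, so its count beside that background is no test of the list. Slc40a1, which encodes the iron exporter ferroportin, averaged 122 ± 30.3 CPM in WT and 42.6 ± 9.15 CPM in PCBP2KO at 2.8 mM, and 161 ± 64.2 and 64.3 ± 20.02 CPM at 16.7 mM (SD). Its log2 fold changes were -1.52 ± 0.28 (edgeR adjusted p = 0.00431) and -1.32 ± 0.26 (adjusted p = 0.01). Macrophages also express this gene, and the macrophage markers were in the ranges given above, higher at 2.8 than at 16.7 mM and overlapping between genotypes; their part in the result was not tested. Ciapin1, a factor of cytosolic iron-sulphur cluster assembly, had -0.72 and -0.76 (edgeR adjusted p = 0.0439 and 0.0239). Ncoa4, the receptor for ferritin turnover, had -0.46 at 2.8 mM (edgeR adjusted p = 0.0901) and was called at 16.7 mM (-0.64 ± 0.12, adjusted p = 0.00899), with 162 ± 11.8 CPM in WT and 104 ± 10.95 CPM in PCBP2KO.

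With glucose, 3 of the 18 were called in WT and 4 in PCBP2KO, where 13.8% and 23.8% of all genes were, so these calls too are not particular to the list. The ferritin chains Fth1 and Ftl1 and the glutaredoxin Glrx3 were called lower at 16.7 mM in WT (-1.11, -1.52 and -1.16) and in PCBP2KO (-1.17, -1.78 and -1.19), and the transferrin receptor Tfrc in PCBP2KO (-0.80). The medians of this list were -0.02 and -0.09 by genotype at 2.8 and 16.7 mM and -0.28 and -0.20 by glucose in WT and PCBP2KO.

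Among 13079 genes of at least 1 mean CPM, those whose log2 CPM followed Pcbp2 most closely over the 17 samples were Rps13-ps1 (Pearson r = 0.945), Gbp11 (0.936), Laptm4b (0.935), Gm10163 (0.927) and Chrna7 (0.923). These values are descriptions over 17 samples from 4 groups, and samples of a group share its genotype and glucose concentration. The paralogs had r = 0.120 (Pcbp1), 0.361 (Pcbp3), 0.178 (Pcbp4) and 0.306 (Hnrnpk). For deviations from the group means, the closest were Mbd2 (0.762), 8030462N17Rik (0.751), Dhx36 (0.746), Pin4 (0.721) and Smurf1 (0.699), and Hnrnpk and Pcbp1 had 0.473 and 0.432. Both sets were picked as the highest of 13079 genes. Whether such values exceed what a search of that size gives was not tested.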

How the data were processed

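Per the paper's methods, the authors aligned read pairs to the GRCm39 transcriptome with Kallisto (version not given in the sources used here). Per the file headers, the deposited files hold estimated counts and TPM per transcript, of which Kallisto's TPM is scaled to effective transcript length and its estimated counts are not normalized between samples. Estimated counts were summed per gene or kept per transcript, rounded, filtered by edgeR's default rule, scaled by TMM and tested with the edgeR 4.0.16 quasi-likelihood test in 1 fit of the 4 groups. The p values were adjusted by Benjamini-Hochberg over every feature in the fit. Usage was tested with limma 3.58.1 (diffSplice). DESeq2 1.42.0, limma on log2 TPM and other settings were alternatives. Shares and sums were compared by two-sided exact permutation tests over samples, on log2(TPM + 1) or percent, 264 comparisons in all. The error of dividing reads among transcripts is in no p value. The count and usage tests were tested on simulated data.

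The study's design had a batch term whose levels the sources used here do not give, so batch was not fitted. The labels do not say that replicates are separate animals, so p values measure the spread between samples, which may be technical. Same-numbered WT samples at the 2 concentrations deviated together (correlations 0.123 to 0.258 over 3 pairs). A fit with the replicate number as a block was also run, and blocked values are given where they change a call. The main fits and the permutation tests did not take the numbers as pairs in any comparison. Between the other groups compared at least 1 same-numbered pair was under 0.1, which does not show that those samples are unpaired. By glucose in PCBP2KO every same-numbered correlation (0.066 to 0.193) was above every one between different numbers (at most 0.0445). Members and gene lists were chosen with earlier results of these data known. Transcripts of at least 1 mean TPM or called in a comparison, and all Pcbp2 transcripts, are named; of the lists, called genes and, whatever its result, Ncoa4; and the 5 genes most correlated with Pcbp2 on each measure. Exons and sequences came from the GRCm39 genome and GENCODE annotation, which held the same version of 79 of the 98 transcripts. Alternatives chosen after seeing the data were leaving out together the 3 samples that stood apart (for usage, sums and shares), leaving out each sample in turn (for sums and shares), the alternatives for the number of usage calls, and TPM without a log or over the sample's median (for sums).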

Additional observations from a re-analysis of the deposited data

Results flagged for a closer look

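Of 84 groups of 4 or 5 samples that were checked, 4 held a sample far from the others, and chance gives about 1 in 20. Pcbp1 stood at 104.9 CPM in replicate 5 of PCBP2KO at 2.8 mM and at 81.1 to 86.3 CPM in the other 4 samples. The share of Pcbp2 TPM in transcripts that begin after exon 2 was 41.6% in replicate 3 of PCBP2KO at 2.8 mM and 23.1% to 26.3% in the others. The share of Hnrnpk TPM with the 60-base extension was 41.7% in replicate 5 of PCBP2KO at 2.8 mM and 51.2% to 54.6% in the others. Pcbp2-216 stood at 0.046 TPM in replicate 1 of WT at 16.7 mM and at 1.15 to 1.36 TPM in the others.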

How the results depend on the processing

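The Pcbp2 gene kept its direction and calls under every alternative run by genotype at both concentrations and by glucose in PCBP2KO. By glucose in WT the replicate block gave -0.58, and leaving out 1 sample gave -0.76 to -0.50. The paralog values by genotype were near 0 and changed sign in some settings. For Pcbp1 the replicate block gave -0.0062 at 2.8 mM, and total counts 0.027 and no filter 0.0051 at 16.7 mM. For Pcbp4 at 2.8 mM the block gave -0.027 and length-scaled counts -0.015, and by glucose in WT length-scaled counts gave 0.042. For Hnrnpk at 2.8 mM total counts, log2(TPM + 1), log2(TPM + 0.1) and length-scaled counts gave 0.10, 0.16, 0.17 and 0.014, and at 16.7 mM the size factors of DESeq2, its Wald test, both TPM scales and length-scaled counts gave -0.0029, -0.0029, -0.090, -0.090 and -0.0059. For the difference of the glucose responses of Hnrnpk, total counts, the TPM scales and length-scaled counts gave -0.078, -0.25, -0.26 and -0.020. For Pcbp3 by glucose, total counts and the TPM scales gave -0.27, -0.66 and -0.68 in WT and -0.20, -0.76 and -0.79 in PCBP2KO, and the TPM scales -0.10 and -0.10 for the difference. Pcbp2-224 by glucose in WT was 0.14 with the block and 0.11 without the 3 samples that stood apart. Hnrnpk-201 by glucose was -0.30, -0.71 and -0.71 on these scales and -0.013 without the 3 samples in WT, and -0.38, -0.93, -0.93 and -0.037 in PCBP2KO.

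Of the 5 genes, by glucose in WT, total counts called 2, both TPM scales 5 and 5 and the replicate block 0, and in PCBP2KO total counts called 3 and the TPM scales 5 and 5. Of the member transcripts, at 2.8 mM DESeq2 called 5 and log2(TPM + 1) 9, and at 16.7 mM DESeq2 called 7. By glucose in WT total counts, DESeq2, log2(TPM + 1), log2(TPM + 0.1) and the fit without the 3 samples called 5, 3, 21, 20 and 3, and in PCBP2KO the first 4 called 10, 6, 24 and 34. For usage, diffSpliceDGE called 1 at 16.7 mM and 0 by glucose in PCBP2KO, the block called 1 by glucose in WT, and the fit without the 3 samples called 1 by glucose in PCBP2KO. The 5-gene sum over the median TPM was -0.089 at 2.8 mM and -0.13 at 16.7 mM, and the 60-base extension by genotype at 16.7 mM was 0.069 percentage points without the 3 samples.
Leaving out 1 sample at a time, Pcbp1 ran from -0.088 to 0.14 by genotype at 2.8 mM, -0.043 to 0.040 by genotype at 16.7 mM, -0.17 to 0.057 by glucose in WT and -0.14 to 0.085 for the difference of the glucose responses. Pcbp4 ran from -0.12 to 0.16 by genotype at 2.8 mM, -0.17 to 0.021 by genotype at 16.7 mM and -0.22 to 0.056 for the difference of the glucose responses, and Hnrnpk from -0.093 to 0.022 by genotype at 2.8 mM, -0.064 to 0.058 by genotype at 16.7 mM and -0.039 to 0.10 for the difference of the glucose responses. Pcbp2-224 ran from -0.18 to 0.15 by glucose in WT and Hnrnpk-201 from -0.036 to 0.13 by glucose in WT. The 4-gene sum ran from -0.25 to 0.051 by genotype at 16.7 mM and the 5-gene sum from -0.023 to 0.076 by genotype at 2.8 mM. In percentage points, the share of Pcbp2 that begins after exon 2 ran from -2.13 to 3.30 by genotype at 2.8 mM, -1.71 to 1.61 by glucose in WT and -1.48 to 6.63 by glucose in PCBP2KO, the decay-annotated share of Hnrnpk from -0.64 to 0.45 by genotype at 2.8 mM and -0.39 to 0.21 by genotype at 16.7 mM, and the 44-base exon from -0.55 to 0.52 by genotype at 2.8 mM and -0.20 to 0.51 by genotype at 16.7 mM. Pcbp2 as a share of the 5-gene TPM ran from -7.21 to -6.54 by genotype at 2.8 mM. None of these 8 repeats passed 0.05, because the smaller groups do not allow it. Called members ran from 0 to 1 gene by glucose in WT, from 1 to 3 transcripts by genotype at 2.8 mM and 0 to 2 by glucose in WT, and for usage from 0 to 1 by glucose in WT and 1 to 4 in PCBP2KO.

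Over all features, the calls ranged with the alternatives other than leaving out 1 sample from 283 to 835 genes (464 as reported) and 190 to 721 (389) by genotype at 2.8 and 16.7 mM, from 3024 to 8902 (3153) and 5264 to 12449 (5431) by glucose in WT and PCBP2KO, and from 0 to 32 (1) for the difference. With total counts alone, 782 genes were called higher and 4055 lower by glucose in WT, against 1629 and 1524, and 1482 and 6369 in PCBP2KO, against 3056 and 2375. For transcripts the ranges were 268 to 1090 (330), 177 to 1000 (257), 2119 to 16219 (3064), 7360 to 27624 (9048) and 0 to 153 (1), and for usage 106 to 169 (158), 95 to 264 (164), 413 to 2115 (857), 1037 to 4811 (3336) and 16 to 207 (63). Leaving out 1 sample gave, in the same order, 242 to 529, 213 to 652, 1382 to 4480, 4640 to 5742 and 0 to 2 genes, 138 to 358, 136 to 426, 459 to 5379, 6927 to 9480 and 0 to 3 transcripts, and for usage 103 to 168, 115 to 208, 364 to 1179, 2398 to 3544 and 33 to 70. Gene counts moved by over 1.5 times without WT replicate 3 at 2.8 mM (242 by genotype), WT replicate 3 or 4 at 16.7 mM (213 and 652 by genotype), or WT replicate 1 or 2 at 2.8 mM (1990 and 1382 by glucose in WT). Transcript counts did without WT replicate 1 or 3 or PCBP2KO replicate 3 at 2.8 mM (203, 138 and 215 by genotype), WT replicate 3 or 4 or PCBP2KO replicate 1 or 3 at 16.7 mM (136, 426, 149 and 152 by genotype), and, by glucose in WT, WT replicate 1 or 2 at 2.8 mM (982 and 459) or 2, 3 or 4 at 16.7 mM (1422, 1406 and 5379). Usage counts did without PCBP2KO replicate 3 or 5 at 2.8 mM (103 and 103 by genotype), without WT replicate 1 or 2 at 2.8 mM (493 and 364) or 2 or 3 at 16.7 mM (400 and 422) by glucose in WT, and without WT replicate 2, 3 or 4 at 16.7 mM (33, 36 and 40) or PCBP2KO replicate 4 at 2.8 mM (39) for the difference. The differences called over all genes and transcripts were too few (0 to 3) to name samples. The main fits and permutation tests did not take the replicate numbers as pairs. Same-numbered correlations between genotypes ran from 0.047 to 0.244 at 2.8 mM and from 0.047 to 0.354 at 16.7 mM. By glucose in PCBP2KO they ran from 0.066 to 0.193, above every correlation between different numbers (at most 0.0445), so those samples may be paired too. In these comparisons the block took away the call of Pcbp2-206 by genotype at 16.7 mM (-2.32). It also took away those of Hnrnpk-215 and Hnrnpk-230 usage by glucose in PCBP2KO (-1.66 and -1.56). By glucose in PCBP2KO it also added calls, of Pcbp2-202 (-1.99, edgeR adjusted p = 0.041) and of the usage of Hnrnpk-208 (-1.67, limma diffSplice adjusted p = 0.00269) and Hnrnpk-202 (0.77, adjusted p = 0.0432). In PCBP2KO at 16.7 mM, 362 to 633 estimated counts were divided among the Pcbp2 transcripts, which limits every transcript share there. The causes of these changes with the settings were not tested.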
